A study of Mus musculus with 19 samples.

Results

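Polyamine metabolism was examined in the prostates of mice on a high fat diet (HFD) and mice on a control diet, through the genes for its enzymes and their direct regulators. The set held 10 genes: Odc1, Amd1, Srm, Sms, Sat1, Smox, Paox, Azin1, Oaz1 and Oaz2. A gene counted as measured when the platform annotation gave at least 1 probe set to it alone. This held for 7 of them, Odc1, Srm, Sat1, Smox, Azin1, Oaz1 and Oaz2, and all 7 passed the filter on low values, among 11728 genes tested. All 7 lay above the median of the array on each of the 19 arrays. Each gene was read from its probe set with the highest mean over all arrays. The 3 probe sets that name Sms also name its pseudogene Sms-ps, so their values are given as Sms or Sms-ps and outside the counts of members. No probe set was listed under the names Amd1 or Paox in the annotation used here.

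The 19 arrays held RNA of the dorsolateral (DLP) and the ventral (VP) prostate lobe of C57BL/6J mice. There were 4 arrays of HFD DLP, 5 of control DLP, 5 of HFD VP and 5 of control VP. Diets began when the mice were 8 weeks old and lasted 12 weeks, with food freely given and 5 mice on each diet, per the labels. The labels do not link an array to a mouse or say whether replicates are separate mice, so the p-values cover the spread among arrays alone, which may be technical.

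Ornithine decarboxylase (Odc1) makes putrescine from ornithine, spermidine synthase (Srm) extends putrescine to spermidine, and spermine synthase (Sms) extends spermidine to spermine. Spermidine/spermine acetyltransferase (Sat1) and spermine oxidase (Smox) run the path backwards. Antizymes (Oaz1, Oaz2) bind ornithine decarboxylase and send it to the proteasome, and the antizyme inhibitor (Azin1) binds antizyme in its place. The prostate is rich in polyamines and secretes spermine into seminal fluid.

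The 250 bases before the start of Odc1, Smox and Oaz1 are shown because these were the 3 measured members whose DLP and VP arrays did not overlap on the control diet, Odc1 lower and the other two higher in DLP. They come from RefSeq (GRCm38.p6), where 5 of the 7 measured members had an entry, and are written 5′ to 3′ along the gene. Capitals mark GC boxes, GGGCGG or CCGCCC on either strand. Odc1 lies at chr12:17544623-17544872 (+), Smox at chr2:131491612-131491861 (+) and Oaz1 at chr10:80826406-80826655 (+).
Odc1: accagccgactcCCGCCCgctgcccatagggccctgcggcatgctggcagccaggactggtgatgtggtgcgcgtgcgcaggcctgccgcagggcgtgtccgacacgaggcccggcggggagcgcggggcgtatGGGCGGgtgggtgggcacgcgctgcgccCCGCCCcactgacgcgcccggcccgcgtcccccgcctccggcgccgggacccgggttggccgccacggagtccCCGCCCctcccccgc
Smox: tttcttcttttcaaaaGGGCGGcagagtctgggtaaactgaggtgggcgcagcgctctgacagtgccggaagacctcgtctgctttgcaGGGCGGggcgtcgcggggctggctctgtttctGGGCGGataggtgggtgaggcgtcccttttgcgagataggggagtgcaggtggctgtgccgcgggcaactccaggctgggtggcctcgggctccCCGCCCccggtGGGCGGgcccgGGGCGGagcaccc
Oaz1: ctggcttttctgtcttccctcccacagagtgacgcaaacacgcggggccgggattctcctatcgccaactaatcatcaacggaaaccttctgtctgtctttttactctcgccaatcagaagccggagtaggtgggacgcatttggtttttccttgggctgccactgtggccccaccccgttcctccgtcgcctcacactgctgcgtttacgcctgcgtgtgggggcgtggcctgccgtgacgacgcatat

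The Odc1 window was 80% G and C and held 4 GC boxes. The Smox window was 68% G and C and held 6, and the Oaz1 window was 58% G and C and held 0. A GC box was found in 32.7% of all 32851 windows of this length, whose median content of G and C was 52.4%. Of the other windows, Sat1 held 2 GC boxes and Oaz2 held 3. An E-box, CACGTG, was found in none of the 5 windows, against 6.02% of all. The half-site AGAACA or TGTTCT was found in Sat1 and Oaz2 with 1 match each, against 16.1% of all. The 3 motifs do not overlap one another in sequence. These matches describe letters and not binding.

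All levels below are log2 values converted from the deposited scale. Differences are log2 differences from a single limma fit over all 19 arrays, except where another fit is named. A gene was called when its Benjamini-Hochberg adjusted p over all 11728 genes was under 0.05. The deposited values depend only on the rank of a probe set on its array, so a shift common to the majority of genes cannot be seen. Levels of different genes come from different probes and are not compared.

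Odc1, the first enzyme of the path, was lower in DLP than in VP on both diets. Its levels were 6.78, 6.78, 6.64 and 6.77 in HFD DLP, against 8.52, 8.10, 7.42, 8.01 and 8.28 in HFD VP. They were 6.69, 6.84, 6.67, 6.94 and 6.54 in control DLP, against 8.24, 8.05, 7.06, 8.30 and 8.11 in control VP. No DLP array reached the lowest VP array on the same diet, and array 3 was the lowest of VP on either diet. The difference was -1.32 on HFD, a 2.51-fold lower level (SE 0.21, limma adjusted p 2.36e-05). On the control diet it was -1.21, or 2.32-fold lower (SE 0.20, limma adjusted p 3.1e-05). Odc1 was called in both lobe contrasts with any 1 array left out, between -1.49 and -1.21 on HFD and between -1.44 and -1.13 on the control diet.

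The other 2 probe sets of Odc1 were tested in a second limma fit over 24867 probe sets, in which 48.4% were called between lobes on HFD and 50.7% on the control diet. Its p-values were adjusted over those probe sets. It also gave all values below for Sms or Sms-ps and for single probe sets that did not stand for their gene. Probe set 1427364_a_at was lower in DLP by -0.96 on HFD and by -0.86 on the control diet, and passed on both (limma adjusted p 0.00027 and 0.00042). Its groups overlapped on the control diet. Probe set 1437711_x_at gave -0.53 on HFD with a limma adjusted p of 0.061, and -0.86 on the control diet with a limma adjusted p of 0.0023. All 3 probe sets thus lay lower in DLP, and 1 of them missed the threshold on HFD. The suffix x marks probe sets whose probes can match other sequences.

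Odc1 did not differ by diet beyond the spread of the arrays. It averaged 6.74 ± 0.066 (SD, n = 4) in HFD DLP and 6.74 ± 0.16 (SD, n = 5) in control DLP. The difference was 0.00, with a 95% interval from -0.43 to 0.44 (limma adjusted p 0.998). In VP it averaged 8.07 ± 0.41 (SD, n = 5) on HFD and 7.95 ± 0.51 (SD, n = 5) on the control diet. That difference was 0.12, with an interval from -0.30 to 0.53 (limma adjusted p 0.833). The diet effects of the lobes differed by -0.11 (interval -0.71 to 0.49, limma adjusted p 0.953).

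**Figure D1:**
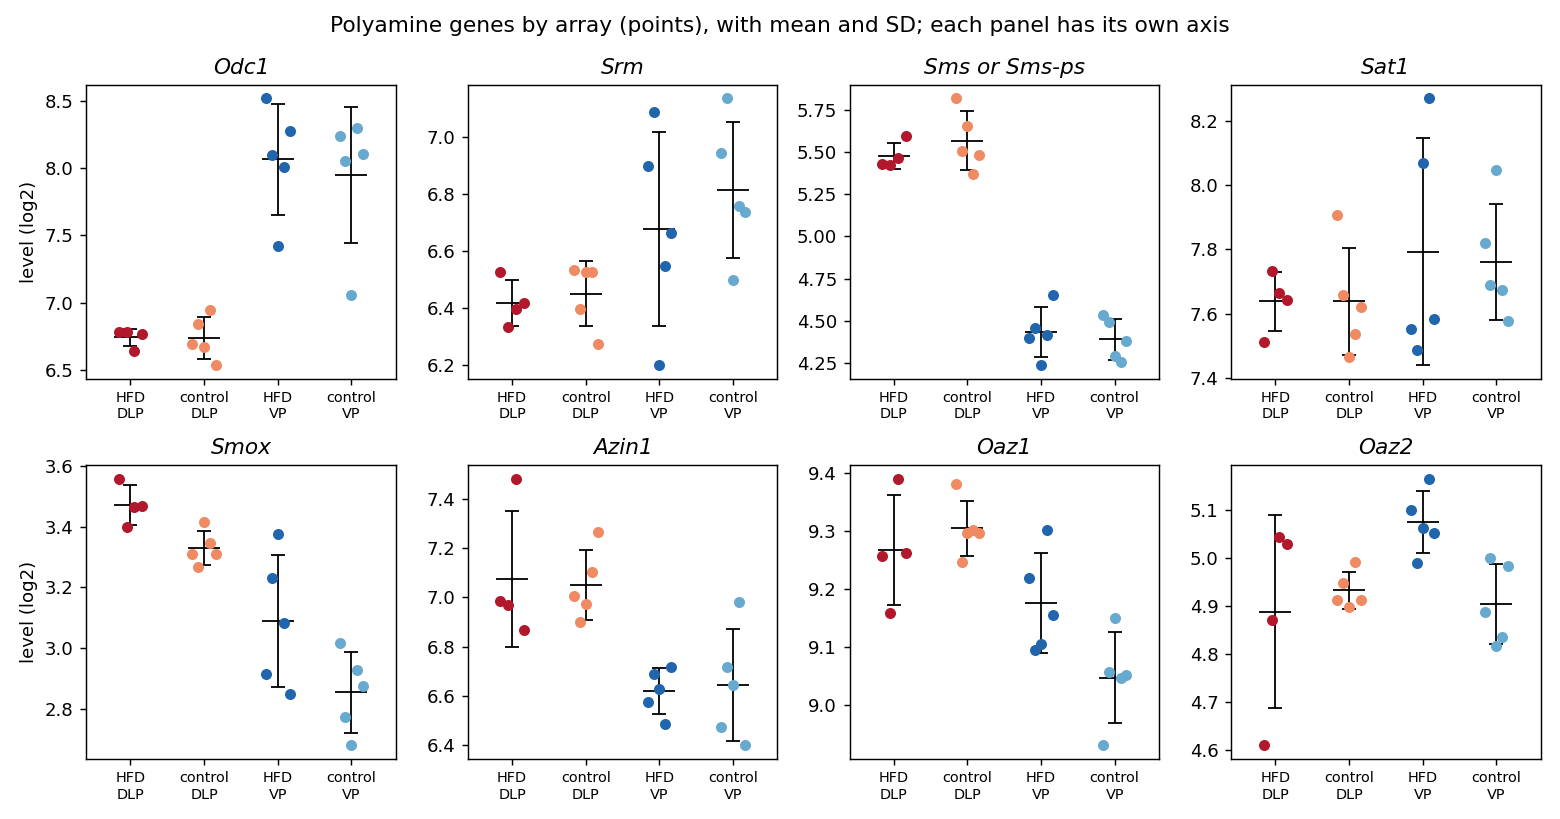
Levels (log2, vertical axis) of 7 polyamine genes and of the probe set shared by Sms and Sms-ps, by group; points are arrays, long bars means and whiskers SD, with 4 arrays in HFD DLP and 5 in each other group. Odc1 is lower in DLP without overlap on either diet, and Smox and the probe set of Sms or Sms-ps are higher without overlap on either diet. The diets overlap within each lobe for all 8.

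Srm, which makes spermidine, was lower in DLP on the control diet. Its levels were 6.53, 6.40, 6.53, 6.53 and 6.27 in control DLP, against 6.94, 7.13, 6.50, 6.76 and 6.74 in control VP. Control VP 3 lay among the DLP arrays and the other 4 VP arrays lay above them. The difference was -0.36 (SE 0.13, limma adjusted p 0.024). This call was lost without control VP 1, control VP 2 or control DLP 5, with limma adjusted p values of 0.056, 0.079 and 0.063.

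On HFD, Srm was at 6.53, 6.33, 6.40 and 6.42 in DLP, against 6.90, 7.09, 6.20, 6.55 and 6.66 in VP. HFD VP 3 was below every DLP array and the other VP arrays were above them. The difference was -0.26 (SE 0.14, limma adjusted p 0.125). Without HFD VP 3 it was -0.38 and was called (limma adjusted p 0.013), and without HFD VP 2 it was -0.16 and was not (limma adjusted p 0.33). By diet Srm differed by -0.03 in DLP (interval -0.32 to 0.26) and by -0.14 in VP (interval -0.41 to 0.14), and neither passed.

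The probe sets listed for Sms and Sms-ps were higher in DLP. On the brightest of them, 1421052_a_at, the levels were 5.43, 5.42, 5.46 and 5.59 in HFD DLP, against 4.40, 4.46, 4.24, 4.42 and 4.65 in HFD VP. In control DLP they were 5.82, 5.51, 5.66, 5.37 and 5.48, against 4.53, 4.49, 4.29, 4.26 and 4.38 in control VP. Every DLP array lay above every VP array. In the limma fit over probe sets, the difference was 1.04 on HFD, or 2.06-fold higher (SE 0.094, limma adjusted p 1.39e-08). On the control diet it was 1.18, or 2.26-fold higher (SE 0.089, limma adjusted p 9.17e-10).

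The other 2 probe sets for Sms and Sms-ps gave differences of the same sign without overlap. Probe set 1434190_at was higher in DLP by 1.26 on HFD and by 1.16 on the control diet (limma adjusted p 1.33e-06 and 1.59e-06). Probe set 1428699_at was higher by 0.67 on HFD and by 0.66 on the control diet (limma adjusted p 6.14e-05 and 3.37e-05). These values do not tell the spermine synthase gene from its pseudogene. Between diets, 1421052_a_at differed by -0.09 in DLP (interval -0.29 to 0.11) and by 0.04 in VP (interval -0.14 to 0.23), and none of the 3 passed in either lobe.

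Sat1, the acetyltransferase that starts polyamine breakdown and export, was called in no contrast. Its levels were 7.51, 7.73, 7.67 and 7.64 in HFD DLP and 7.91, 7.66, 7.47, 7.54 and 7.62 in control DLP. In VP they were 7.55, 7.49, 8.07, 8.27 and 7.58 on HFD and 7.82, 7.69, 8.05, 7.67 and 7.58 on the control diet. HFD VP 3, HFD VP 4 and control VP 3 stood above the other arrays of VP.

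By diet, Sat1 differed by 0.00 in DLP (interval -0.29 to 0.29) and by 0.03 in VP (interval -0.24 to 0.31). Between lobes it differed by -0.15 on HFD (limma adjusted p 0.37) and by -0.12 on the control diet (limma adjusted p 0.45). HFD VP 3 and control VP 3 also had the highest summed levels of the 4 macrophage markers of their groups, 106.2 and 74.3 on the linear scale, against 37.8 to 52.2 on the other HFD VP arrays and 35.9 to 70.2 on the other control VP arrays. HFD VP 4, where Sat1 was highest, had 52.2. This was not particular to macrophage markers. HFD VP 3 was also the highest of its group for summed luminal, smooth muscle, skeletal muscle, adipocyte, T cell, endothelial, fibroblast and cycling-cell markers. Control VP 3 was also the highest of its group for nerve, seminal vesicle and cycling-cell markers. The part of macrophages or other cells in the Sat1 levels was not tested. In whole tissue a change in the number of cells of a type and in RNA per cell cannot be told apart.

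Smox, which oxidises spermine to spermidine, was higher in DLP on both diets at the probe set that passed the filter. Its levels were 3.56, 3.40, 3.46 and 3.47 in HFD DLP, against 2.92, 3.23, 3.37, 3.08 and 2.85 in HFD VP. They were 3.31, 3.27, 3.41, 3.35 and 3.31 in control DLP, against 3.02, 2.77, 2.68, 2.93 and 2.88 in control VP. The groups did not overlap on either diet. The difference was 0.38 on HFD, or 1.30-fold (SE 0.097, limma adjusted p 0.0027), and 0.47 on the control diet, or 1.39-fold (SE 0.092, limma adjusted p 0.00021). With an offset of 16 inside the logarithm, in place of 1, the differences were 0.15 on HFD and 0.17 on the control diet, and both were called. The other probe set of Smox did not pass the filter and was not tested. It averaged 1.316 in HFD DLP, against 1.205 in HFD VP. In control DLP it averaged 1.134, against 1.262 in control VP, so its direction differed between diets. All these means lay below the array median of 1.845. Smox did not pass the filter at the 75th percentile and was not tested there.

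Smox was not called by diet in either lobe. In VP it averaged 3.09 ± 0.22 (SD, n = 5) on HFD and 2.86 ± 0.13 (SD, n = 5) on the control diet. The difference was 0.24 (interval 0.04 to 0.43), with an unadjusted limma p of 0.018 and a limma adjusted p of 0.22. In DLP it averaged 3.47 ± 0.065 (SD, n = 4) on HFD and 3.33 ± 0.056 (SD, n = 5) on the control diet, a difference of 0.14 (interval -0.06 to 0.35, limma adjusted p 0.98). HFD and control arrays overlapped in both lobes.

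Azin1, which frees ornithine decarboxylase from antizyme, was higher in DLP on both diets at its brightest probe set. Its levels were 6.99, 6.97, 7.48 and 6.87 in HFD DLP, against 6.58, 6.69, 6.63, 6.49 and 6.72 in HFD VP. They were 7.00, 6.90, 6.97, 7.11 and 7.27 in control DLP, against 6.48, 6.72, 6.64, 6.98 and 6.40 in control VP. HFD DLP 3 stood above all other arrays. In the control groups, control VP 4 lay within the range of control DLP. The difference was 0.46 on HFD (SE 0.12, limma adjusted p 0.0034) and 0.41 on the control diet (SE 0.11, limma adjusted p 0.0048).

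The 3 probe sets of Azin1 did not all pass. Probe set 1422702_at was higher in DLP by 0.33 on HFD (limma adjusted p 0.029) and by 0.23 on the control diet (limma adjusted p 0.11). Probe set 1430984_at gave 0.09 on HFD and 0.11 on the control diet, neither of which was called. The mean of the 3 was higher by 0.29 on HFD and by 0.25 on the control diet, and was called on both. By diet, the brightest probe set differed by 0.03 in DLP (interval -0.23 to 0.28) and by -0.02 in VP (interval -0.26 to 0.21). Probe set 1422702_at differed by -0.31 in VP, with an unadjusted limma p of 0.015 and a limma adjusted p of 0.21.

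Oaz1, the most broadly expressed antizyme, was higher in DLP on the control diet. Its levels were 9.38, 9.25, 9.30, 9.30 and 9.30 in control DLP, against 8.93, 9.06, 9.15, 9.05 and 9.05 in control VP, without overlap. The difference was 0.26, or 1.20-fold (SE 0.060, limma adjusted p 0.0012). On HFD the levels were 9.26, 9.16, 9.39 and 9.26 in DLP, against 9.22, 9.10, 9.11, 9.30 and 9.15 in VP, and the groups overlapped. That difference was 0.09 (SE 0.064, limma adjusted p 0.24).

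The lobe difference of Oaz1 was not shown to depend on diet, since the difference between the 2 diet effects was -0.17 (interval -0.35 to 0.02, limma adjusted p 0.63). By diet, Oaz1 differed by -0.04 in DLP (interval -0.17 to 0.10) and by 0.13 in VP (interval 0.00 to 0.25, unadjusted limma p 0.047, limma adjusted p 0.32). A probe set listed for both Oaz1 and its pseudogene Oaz1-ps, 1428868_a_at, differed between lobes by 0.06 on HFD and by -0.03 on the control diet, and was not called.

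Oaz2, a second antizyme, was called in no contrast. Its levels were 4.61, 4.87, 5.04 and 5.03 in HFD DLP, against 5.10, 4.99, 5.06, 5.17 and 5.05 in HFD VP. They were 4.91, 4.95, 4.90, 4.99 and 4.91 in control DLP, against 4.89, 5.00, 4.82, 4.83 and 4.98 in control VP. HFD DLP 1 was the lowest of all arrays.

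Between lobes Oaz2 differed by -0.19 on HFD, just short of a call (SE 0.078, limma adjusted p 0.051), and by 0.03 on the control diet (limma adjusted p 0.76). Leaving out control VP 4, HFD VP 2, HFD DLP 3 or HFD DLP 4 made the HFD difference a call, at limma adjusted p values from 0.022 to 0.048. Without HFD DLP 1 the difference was -0.09 (limma adjusted p 0.275). By diet it differed by -0.04 in DLP (interval -0.21 to 0.12) and by 0.17 in VP (interval 0.02 to 0.32, unadjusted limma p 0.031, limma adjusted p 0.27). The other 2 probe sets of Oaz2 were not called in any contrast, and in VP both differed by diet with the opposite sign, at -0.08 and -0.06.

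**Figure D2:**
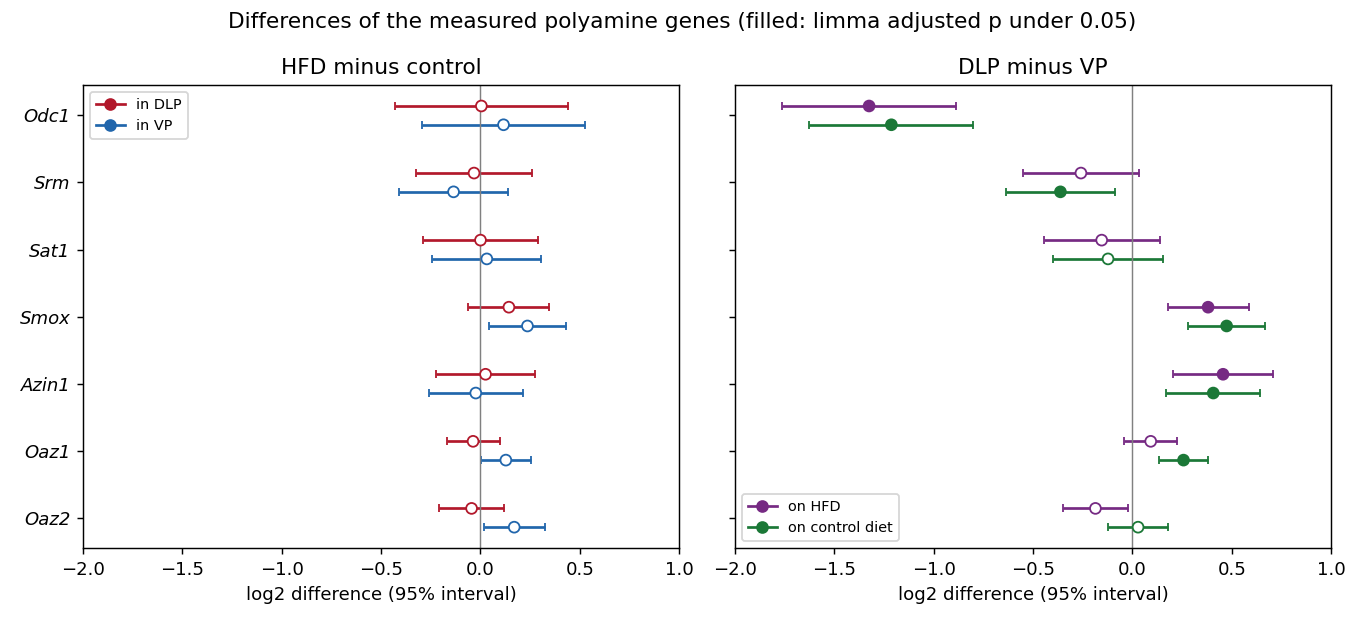
Log2 differences (horizontal axis) of the 7 measured genes with 95% intervals, HFD minus control on the left and DLP minus VP on the right; filled points were called by limma. All diet points are open, and Odc1 is the gene farthest from 0 between lobes, at -1.32 on HFD and -1.21 on the control diet.

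Counted over the 7 genes, limma called 0 by diet in DLP, where 0% of all genes were called, and 0 in VP, where 1.11% were. At an unadjusted p under 0.05, the diet counts were 0 of 7 in DLP, against 5.64% of all genes, and 3 of 7 in VP, against 15.2%. Those 3 were Smox, Oaz1 and Oaz2, all higher on HFD, in which direction 8.07% of all genes passed. In neither lobe did HFD and control arrays separate without overlap for any of the 7, against 3.15% of all genes in DLP and 2.58% in VP. The median diet difference was 0.00 in DLP, against 0.01 over all genes, and 0.12 in VP, against 0.01. The diet effects of DLP and VP differed for 0 of 7, against 0.00853% of all genes, and 0 of 7 had an unadjusted p under 0.05, against 8.45%.

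Between lobes, 3 of the 7 were called on HFD, where 52.9% of all genes were, and 5 on the control diet, where 55% were. On HFD, Smox and Azin1 were higher in DLP and Odc1 was lower, against 26.8% of all genes higher and 26.1% lower. On the control diet, Smox, Azin1 and Oaz1 were higher and Odc1 and Srm were lower, against 28.2% higher and 26.8% lower. Groups did not overlap for Odc1, Smox and Azin1 on HFD, against 44.4% of all genes, and for Odc1, Smox and Oaz1 on the control diet, against 39.3%. With so few genes and most of the array called, these counts were not read as a result about polyamine genes. The median size of the lobe difference, regardless of sign, was 0.26 on HFD, against 0.30 over all genes, and 0.36 on the control diet, against 0.30. The lobe contrasts share no array with each other, but each shares arrays with the diet contrasts. All contrasts use the same spread per gene from the single fit, so their counts are not independent.

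**Figure D3:**
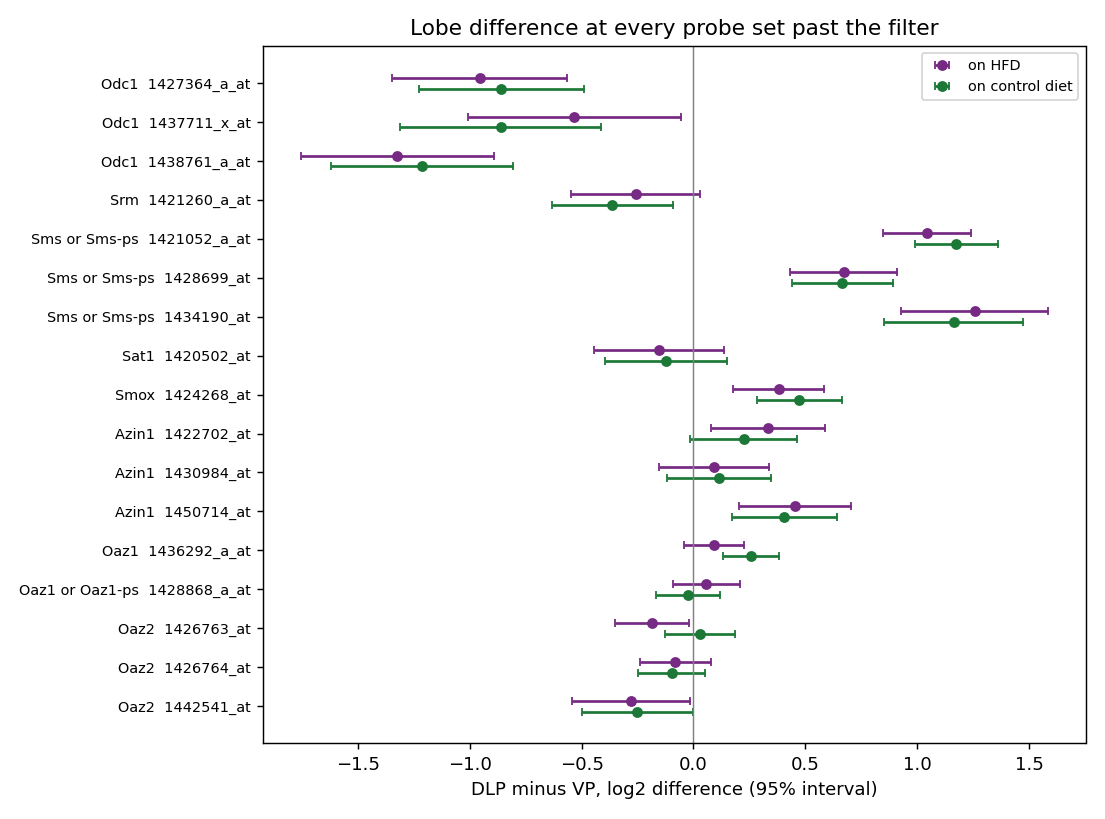
Log2 difference DLP minus VP (horizontal axis) with 95% intervals, from the limma fit over probe sets, at the 17 of 18 probe sets of the measured genes and of Sms that passed the filter. The 3 probe sets of Odc1 all lie below 0 and the 3 of Sms or Sms-ps all lie above it, whereas those of Azin1 differ in size and those of Oaz1 and Oaz2 differ in sign on the control diet.

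The wider polyamine pathway was followed through 50 further genes, of which 34 were tested. By diet, limma called 0 of the 34 in DLP and 0 in VP, against 0% and 1.11% of all genes. At an unadjusted p under 0.05 the counts were 1 in DLP and 2 in VP, against 5.64% and 15.2% of all genes. Between lobes it called 22 on HFD, 13 higher and 9 lower in DLP, which is 64.7% of the list, against 52.9% of all genes. On the control diet it called 24, 11 higher and 13 lower, or 70.6%, against 55% of all genes. The counts of each group below stand beside the same background, in which 26.8% of all genes were higher and 26.1% lower in DLP on HFD, and 28.2% higher and 26.8% lower on the control diet. The list was not tested against it. Slc12a8, Gatm, Ass1, Nqo1 and Tgm4 passed the filter on low values through DLP alone, and Arg1 through VP alone, so the filter largely fixed their direction between lobes.

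Among genes of transport across membranes, 5 of 7 were higher in DLP on each diet and 0 were lower. They were Slc3a2, Slc7a1, Slc7a2 and Atp13a3, and Slc12a8, whose direction the filter largely fixed. Slc3a2, the heavy chain of several amino acid transporters, averaged 7.11 ± 0.13 (SD, n = 4) in HFD DLP and 5.67 ± 0.24 (SD, n = 5) in HFD VP. In control DLP it averaged 6.99 ± 0.13 (SD, n = 5), against 5.67 ± 0.11 (SD, n = 5) in control VP. The differences were 1.44 on HFD and 1.32 on the control diet (limma adjusted p 6.56e-10 and 1.03e-09). Slc7a1, which imports arginine and ornithine, was higher in DLP by 1.03 on HFD and by 1.16 on the control diet. Slc12a8, a cation-chloride cotransporter relative linked to polyamine transport, averaged 2.98 in HFD DLP and 2.87 in control DLP, and lay below the median of the array on all VP arrays, so the size of its difference is uncertain.

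Among 8 tested genes of arginine and ornithine supply, 2 were higher and 4 lower in DLP on HFD, and 3 were higher and 5 lower on the control diet. The filter largely fixed the direction of Gatm, higher on each diet, of Ass1, called higher on the control diet, and of Arg1, lower on each diet. Arg1, arginase, which makes ornithine, lay above its array's median on 0 of 4 HFD DLP arrays and 1 of 5 control DLP arrays, and averaged 4.39 in HFD VP and 4.25 in control VP. The size of its difference is therefore uncertain. Asl, which releases arginine, was lower by -1.01 on each diet. Slc25a15, the mitochondrial ornithine carrier, was lower by -0.35 on HFD and by -0.62 on the control diet.

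In the methionine cycle and salvage group, which recycles the by-product of spermidine and spermine synthesis, 0 of 7 were higher in DLP, with 1 lower on HFD and 3 on the control diet. Adi1, a dioxygenase of methionine salvage, averaged 5.63 ± 0.27 (SD, n = 4) in HFD DLP and 8.09 ± 0.30 (SD, n = 5) in HFD VP. In control DLP it averaged 5.69 ± 0.26 (SD, n = 5), against 8.26 ± 0.20 (SD, n = 5) in control VP. The differences were -2.46 on HFD and -2.57 on the control diet (limma adjusted p 1.02e-10 and 1.94e-11). Adi1, like Enoph1 below, was read from a probe set with the suffix x, whose probes can match other sequences. Enoph1, the enzyme before Adi1, and Mat2b, a regulatory subunit of methionine adenosyltransferase, fell by 0.24 and 0.20 on the control diet alone (limma adjusted p 0.030 and 0.047), and a dependence on diet was not called for either.

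Of the 3 further catabolic and antizyme genes tested, limma called 3 on HFD and 2 on the control diet. Nqo1, a quinone reductase that binds ornithine decarboxylase, averaged 2.15 in HFD DLP and 2.38 in control DLP, and lay above its array's median on 0 of 5 HFD VP arrays and 1 of 5 control VP arrays, so the size of its difference is uncertain too. Aldh9a1, which oxidises aminoaldehydes, was lower by -0.20 on HFD and by -0.23 on the control diet. Eif5a, the protein that carries the hypusine made from spermidine, was lower by -0.45 on HFD and by -0.32 on the control diet (limma adjusted p 0.00099 and 0.0079). The hypusine enzymes Dhps and Dohh were higher by 0.30 and 0.34 on HFD (limma adjusted p 0.022 and 0.020). On the control diet they were higher by 0.20 and 0.24 and were not called (limma adjusted p 0.095 and 0.077). A dependence on diet was not called for either (limma adjusted p 0.90 and 0.91).

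Among genes that use or regulate polyamines, Tgm4, the prostate transglutaminase, stood at 12.59 to 12.73 in HFD DLP, against 1.41 to 2.37 in HFD VP. In control DLP it stood at 12.31 to 12.73, against 1.36 to 2.02 in control VP, where the median of every array was 1.85, so the size of its difference is uncertain. Tgm2, the tissue transglutaminase, was lower in DLP by -1.10 on HFD and -1.20 on the control diet. Its probe set has the suffix x as well. Nfe2l2, an activator of stress-response genes, was lower by -1.24 on HFD and by -1.12 on the control diet.

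**Figure D4:**
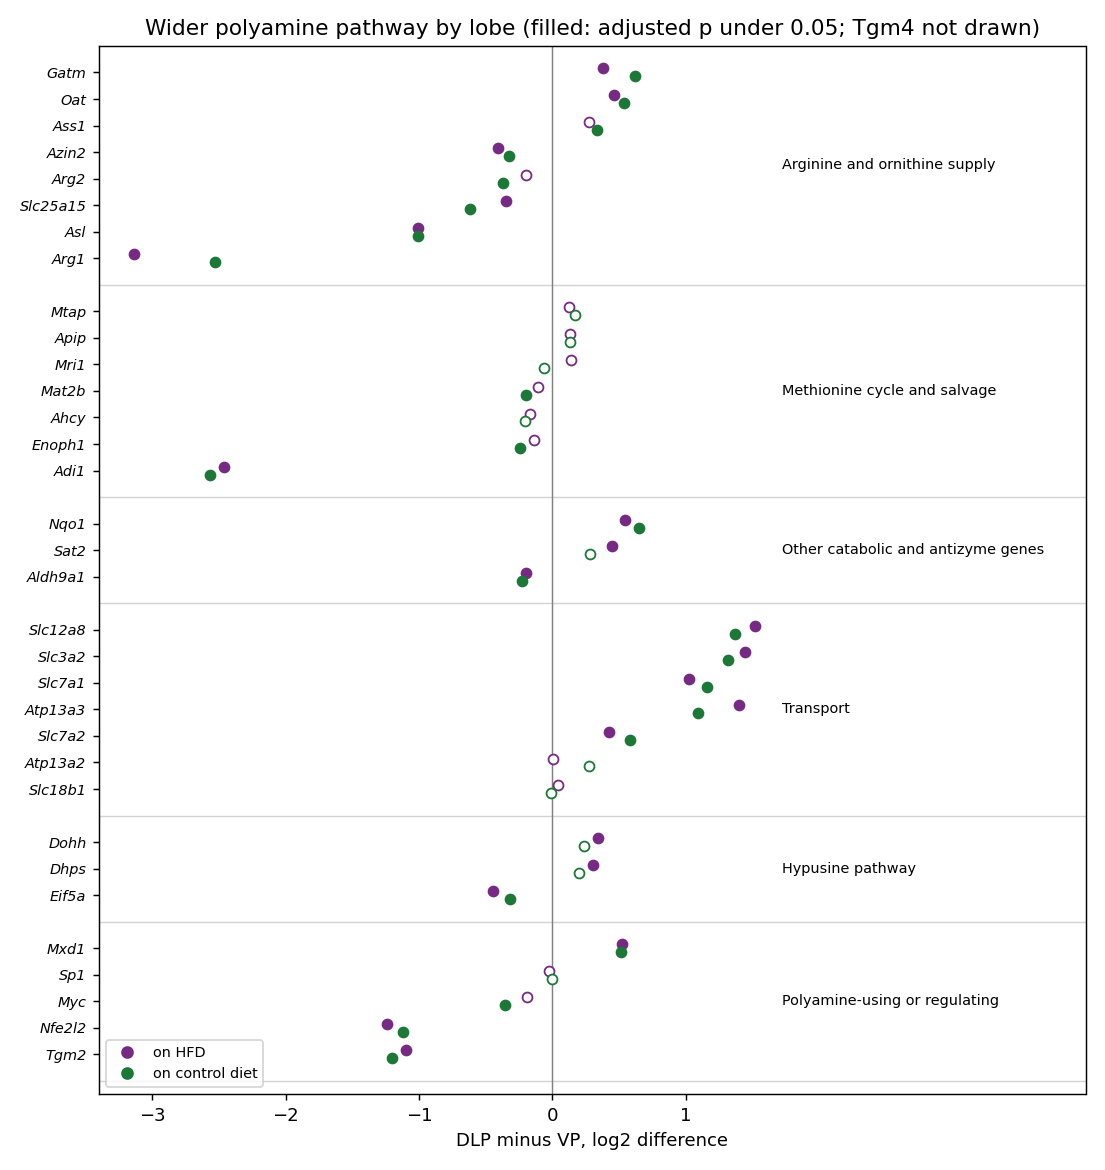
Log2 difference DLP minus VP (horizontal axis) of the tested genes of the wider pathway other than Tgm4, on HFD (purple) and on the control diet (green); filled points were called by limma. Transport genes lie at or above 0 on HFD, and those farthest to the left are Adi1 and Arg1; the DLP levels of Arg1 were mostly below the median of the array. Tgm4 is left out for scale.

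The genes whose levels ran most like those of Odc1 over the 19 arrays were Rab5if, Fign and Galnt4, with Pearson correlations of 0.964, 0.963 and 0.959. After removal of the 4 group means they were 0.895, 0.853 and 0.832. For Sat1 they were Ptprc, the leukocyte antigen CD45, Cxcl14, a chemokine, and Scara3, with 0.858, 0.850 and 0.846, and 0.852, 0.854 and 0.837 after removal of group means. These values describe the 19 arrays, whose values share the same scaling.

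Marker genes of some cell types differed between lobes, where 52.9% of all genes were called on HFD and 55% on the control diet. On HFD, 26.8% of all genes were higher and 26.1% lower in DLP. On the control diet, 28.2% were higher and 26.8% lower. The marker lists were not tested against these shares. The summed level of 6 luminal markers, on the linear scale, was 9031 to 10790 in HFD DLP and 8705 to 10900 in control DLP, against 3371 to 7488 in HFD VP and 3262 to 6660 in control VP. Of the 6, 2 were higher and 3 lower in DLP on each diet. Pbsn had the highest mean of the list in each group and weighed most in the sum. It averaged 12.54 in HFD DLP and 12.58 in control DLP, against 10.3 in HFD VP and 10.4 in control VP. In DLP, 4 of 6 smooth muscle markers and 2 of 3 skeletal muscle markers were higher on each diet. Basal markers were higher in DLP for 2 of 4 on HFD and 4 of 4 on the control diet. Ckm, a skeletal muscle marker, passed the filter through DLP alone, so the filter largely fixed its direction. Of 5 nerve markers, 3 were higher on HFD and 5 on the control diet, but 4 of them, Nefl, Nefm, Prph and Stmn2, passed the filter through DLP alone so the filter largely fixed their direction. Macrophage markers were lower for 2 of 4 on each diet, and cycling-cell markers for 0 of 3 on HFD and 2 of 3 on the control diet. Of 2 adipocyte markers, 1 was lower on each diet, and of 2 T cell markers, 1 was higher on the control diet alone. No tested endothelial, fibroblast or seminal vesicle marker was called between lobes. No tested marker on any list was called by diet. The part of cell composition in the lobe differences of polyamine genes was not tested.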

How the data were processed

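The deposited values were the authors' processed values for 45101 probe sets on 19 single-sample 3′ expression arrays. The submitters' processing notes name MAS5. No further step is given in the sources used here. The deposited values were taken as log10 of the signal, from the hybridization controls. Their mean step was 0.50 between bioB and bioC where the nominal log10 step is 0.52, 0.62 between bioC and bioD (nominal 0.70) and 0.99 between bioD and cre (nominal 0.60). Every size of difference rests on this base, which the last step fits poorly, and on an offset of 1 inside the logarithm, which was assumed. Sorted values were the same on all 19 arrays. The number of arrays limits the precision.

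Values were converted to log2 with no further normalization. The 64 control probe sets did not enter. By the platform annotation, 34958 probe sets had a single symbol, 932 had several and 9211 had none here, and 34754 symbols were updated through GRCm38.p6 gene identifiers. Probe sets above the median of their own array on at least 4 arrays were kept (24867), and the highest-mean probe set stood for each gene. Groups came from the sample titles. limma 3.58.1 in R 4.3.3 fitted 4 group means (lmFit, then eBayes with trend), with two-sided Benjamini-Hochberg adjusted p-values over 11728 genes. The contrasts were HFD minus control in each lobe, their difference, and DLP minus VP on each diet. The fit was run on simulated independent noise with few changed genes. That setting is unlike the lobe contrasts, so the run does not bear on the lobe calls. All measured members were described. From the wider pathway, genes called by diet would be named, and for the lobe contrasts the 3 largest called differences on the control diet in each group. Slc7a2, Atp13a3, Dhps and Dohh were added after their values were seen. The 3 most correlated genes were named for Odc1 and Sat1. Members and lists were chosen with earlier results of these data known. Other probe sets of genes outside the polyamine set were not analysed here. Alternatives covered the log base, offset, filter, probe set, variance prior, array weights, replicate block, samples in the fit, normalization and arrays left out.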

Additional observations from a re-analysis of the deposited data

Results flagged for a closer look

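The levels of the 7 measured genes and of the probe set for Sms or Sms-ps were searched for single arrays far from the rest of their group, in 32 sets of 4 or 5 arrays, and 2 were found. Chance alone gives such an array in about 1 in 20 sets. Odc1 on control VP 3 was at 7.06 on the log2 scale, and the nearest other control VP array was at 8.05, so this gap made up 0.801 of the range of its group. Odc1 on HFD DLP 3 was at 6.64, and the nearest other HFD DLP array was at 6.77, a gap of 0.906 of a narrow range. Without control VP 3 the diet difference of Odc1 in VP was -0.11, against 0.12 with all arrays, and it was called in neither fit. Without HFD VP 3, the lowest array of its group, it was 0.28.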

How the results depend on the processing

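Over 27 alternatives and 19 fits with 1 array left out, 1217 of 1299 member values kept their direction and their side of the threshold. Of the others, 62 changed sign without being called in either fit, 7 lost and 13 gained a call. Part of this count was fixed in advance. Another log base only rescales the values, so neither direction nor call could change. The fits without a filter or with probe sets as the unit kept the same differences. Leaving out an array of VP could not move the diet difference in DLP, or the reverse. With array weights 5 members were called between lobes on HFD, against 3, with Srm (limma adjusted p 0.019) and Oaz2 (0.046) added. Leaving out 1 array gave 3 to 4 calls on HFD, 4 to 5 on the control diet and 0 for diet. Whether replicate numbers pair the lobes is not known: deviations of same-numbered arrays correlated between -0.024 and 0.180, over 0.1 in 4 of 9 pairs, and 6 of the 9 correlated best with their own number, a hint from the data and not the design. With the number as a random block Oaz2 was called between lobes on HFD (-0.19, limma adjusted p 0.0455, 4 members in all), and as a fixed block it was not (0.085, 3 members). Oaz2 was also called there with an offset of 16 (0.047), the 75th percentile filter (0.041) and the mean of probe sets (0.032). Srm was called there without control VP 4 and HFD VP 3 (0.014) and, in a fit added after seeing the data, without control VP 3 and HFD VP 3 (0.0070).

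All sign changes were of uncalled differences, and their causes were not tested. By diet in VP, Odc1 was at -0.1062 with the mean of probe sets, -0.1162 on 1427364_a_at and -0.3186 on 1437711_x_at. Oaz2 was at -0.08293 on 1426764_at and -0.05529 on 1442541_at. Array weights put Sat1 at -0.06945 and Azin1 at 0.02404, and the fit without control VP 4 and HFD VP 3 put them at -0.05882 and 0.05883. By diet in DLP, Odc1 was at -0.06533 with the mean, -0.2126 on 1427364_a_at and -0.01198 with array weights. Azin1 was at -0.08041 with the mean, -0.1979 on 1422702_at and -0.06909 on 1430984_at. Sat1, at 0.0003166 in the reported fit, was at -5.842e-05 with offset 16, -0.0003202 with array weights, -0.001988 with the random block and -0.002127 with cyclic loess. Between lobes on the control diet, Oaz2 was at -0.1066 with the mean, -0.09685 on 1426764_at and -0.2514 on 1442541_at. For the difference of the diet effects, Odc1 was at 0.04088 with the mean and 0.3304 on 1437711_x_at, Azin1 at -0.02312 on 1430984_at, Oaz2 at 0.01619 on 1426764_at and Sat1 at 0.06913 with array weights. Without control VP 4 and HFD VP 3, Srm was at -0.002134, Sat1 at 0.05914 and Azin1 at -0.0331. Without control VP 3 and HFD VP 3, Smox was at 0.0211. With 1 array left out, the diet difference in VP ran from -0.1072 to 0.2777 for Odc1, -0.08723 to 0.1083 for Sat1 and -0.08447 to 0.06085 for Azin1. In DLP it ran from -0.04581 to 0.05612 for Odc1, -0.04257 to 0.06744 for Sat1, -0.1094 to 0.09498 for Azin1 and -0.09618 to 0.04839 for Oaz2. The difference of the diet effects ran from -0.273 to 0.112 for Odc1, -0.01612 to 0.2049 for Srm, -0.108 to 0.08755 for Sat1 and -0.08594 to 0.1185 for Azin1.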

Other observations

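The tested seminal vesicle markers, Svs4 and Svs5, had summed levels of 0.61 to 90.6 on the linear scale in HFD VP and 0.61 to 3.3 in control VP, with HFD VP 2 the highest. Odc1 on HFD VP 2 was at 8.10, within the range of its group. Cycling-cell markers summed to 62.4 on control VP 2 and 66.3 on control VP 3, against 16.6 to 28.7 on the other control VP arrays. Srm was highest of its group on control VP 2, at 7.13, and lowest on control VP 3, at 6.50. Nerve markers summed to 15.2 to 164.5 in control DLP, against 5.4 to 9.5 in control VP. The part of these cells in the levels of polyamine genes was not tested.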
